A study of Homo sapiens with 6 samples.

Results

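The genes described here encode the aminoacyl-tRNA synthetases and 2 scaffold proteins of the complex that several of these enzymes form. They were taken by symbol from a list of 38, of which 37 had a row in the deposited table of 18164 genes and VARS2 was not analysed here. The 37 comprised 20 genes for cytosolic synthetases, 15 for mitochondrial synthetases, and the scaffold genes AIMP1 and AIMP2. RNA-seq was carried out on HEK293, an established human embryonic kidney line, in a commercial form that grows in suspension. The 3 transfected libraries came from cells to which 2 plasmids had been delivered with a polymer reagent for the synthesis of adeno-associated virus (AAV), and the 3 untransfected libraries from cells given PBS instead, all harvested 18 h after transfection. The controls received neither DNA nor reagent, so effects of the plasmids, the reagent and vector production cannot be told apart. Values are TPM, a transcript abundance scaled to a fixed total per library and corrected for transcript length, so levels can be set side by side between genes.

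An aminoacyl-tRNA synthetase joins an amino acid to the tRNAs that read its codons, which supplies the ribosome with charged tRNA. Human cells keep separate enzymes for the cytosol and for mitochondria, where the mitochondrially encoded mRNAs are translated; both sets are encoded in the nucleus, and GARS1 and KARS1 serve both places. A group of the cytosolic enzymes sits in the multisynthetase complex, held together by scaffold proteins. In the amino acid response, the transcription factor ATF4 raises many cytosolic synthetase genes through a promoter element called CARE (C/EBP-ATF response element).

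The promoters were searched for this element, a motif chosen with the values of these genes known. RefSeq promoters on GRCh38.p14, each running from 250 bases before to 50 bases after a transcription start, were found for 32 of the 37 genes; AARS2, LARS1, TARS3, VARS1 and YARS1 had no entry. The motif was written TGATGNAA and searched on both strands. It was present in a promoter of 8 of the 32 genes (25.0%), against 1217 of 27305 genes in the whole promoter table (4.46%). Of the 8, 7 encode cytosolic enzymes, and 1, YARS2, a mitochondrial enzyme. Of the cytosolic synthetases listed as ATF4-responsive from general knowledge, 7 of 10 with a promoter held the motif, and of the other cytosolic synthetases 0 of 6. A match is a description of letters and not evidence of a bound site. The stretches around the 8 matches are shown because the same letters recur in them: capitals mark the match, and each is written 5′ to 3′ on the strand of its gene.
AARS1: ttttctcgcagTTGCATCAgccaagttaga
CARS1: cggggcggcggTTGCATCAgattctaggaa
IARS1: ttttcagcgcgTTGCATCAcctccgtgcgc
MARS1: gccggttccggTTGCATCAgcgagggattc
TARS1: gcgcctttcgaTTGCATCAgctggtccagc
NARS1: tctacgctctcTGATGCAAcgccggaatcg
GARS1: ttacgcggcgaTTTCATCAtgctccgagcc
YARS2: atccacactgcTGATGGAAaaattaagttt

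On GRCh38 these stretches lie at chr16:70289675-70289704 (AARS1, minus strand), chr11:3057407-3057436 (CARS1, minus), chr9:92293692-92293721 (IARS1, minus), chr12:57488053-57488082 (MARS1, plus), chr5:33440956-33440985 (TARS1, plus), chr18:57621804-57621833 (NARS1, minus), chr7:30594834-30594863 (GARS1, plus) and chr12:32756076-32756105 (YARS2, minus). The core was TTGCATCA in AARS1, CARS1, IARS1, MARS1 and TARS1, and its reverse complement TGATGCAA in NARS1. Counted from the transcription start, the match began at base -187 in AARS1, -33 in GARS1, -13 in IARS1, -4 in MARS1, -2 in CARS1, 3 in TARS1, 15 in NARS1 and -197 in YARS2. All but those of AARS1 and YARS2 thus lay close to the start.

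The level of the genes differed widely within a library. In untransfected cells the cytosolic synthetases ranged from 14.1 TPM (CARS1) to 358 TPM (TARS1), with a median of 80.2 TPM, and the mitochondrial synthetases from 5.77 TPM (SARS2) to 150 TPM (IARS2), with a median of 28.2 TPM. After TARS1, the threonine enzyme, the next highest genes were FARSA (243 ± 4.02 TPM), EPRS1 (212 ± 20.6), SARS1 (199 ± 11.4) and RARS1 (154 ± 18.0 TPM; mean ± SD, n = 3 here and below). EPRS1, SARS1 and RARS1 encode the enzymes for glutamate and proline, for serine and for arginine. EPRS1 was at 223.51, 223.68 and 187.96 TPM in untransfected replicates 1 to 3 and SARS1 at 200.57, 209.22 and 186.60 TPM. These values overlapped, so their order is not settled by these libraries, and RARS1 lay close to QARS1, IARS2 and KARS1 (151, 150 and 148 TPM) within its own spread. At the low end stood 5 mitochondrial genes. CARS2 was at 13.33, 15.18 and 13.46 TPM, RARS2 at 13.76, 14.39 and 11.14 TPM, and FARS2 at 11.38, 10.85 and 9.0 TPM in untransfected replicates 1 to 3. Below them, NARS2 was at 6.50, 6.96 and 5.32 TPM and SARS2 at 6.29, 5.65 and 5.36 TPM. These 5 serve cysteine, arginine, phenylalanine, asparagine and serine, and neighbours in this order overlapped except FARS2 and NARS2. In the GENCODE 29 annotation 57.0% of the exonic bases of SARS2 also belong to another gene, mostly the readthrough gene AC011455.2 on the same strand, so its value is uncertain.

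**Figure D1:**
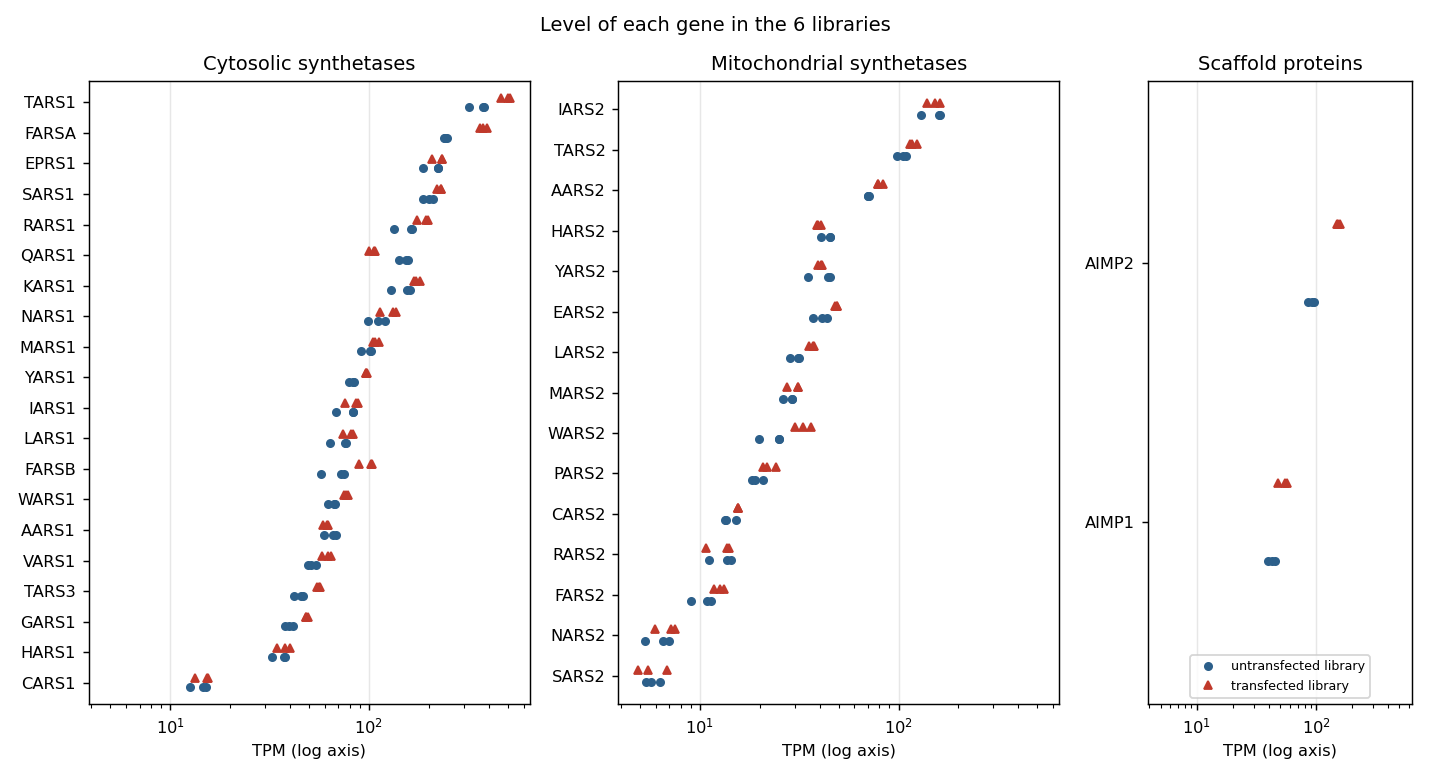
TPM of each gene (log axis) in the 3 untransfected libraries (circles) and the 3 transfected libraries (triangles), in panels for cytosolic synthetases, mitochondrial synthetases and scaffold proteins, ordered by the untransfected mean. TARS1 and FARSA lead the cytosolic panel and IARS2 the mitochondrial one, while NARS2 and SARS2 stay below 8 TPM in all 6 libraries.

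Libraries within a group were not alike. Mitochondrially encoded genes took 37.6% of TPM in untransfected replicate 3, against 28.4 to 32.4% in the other 5 libraries. That replicate had the lowest untransfected value for 34 of the 37 genes, and transfected replicate 1, with 31.6%, the lowest transfected value for 25. Since TPM add up to a fixed total, these shares bear on every gene; the part they play in the changes below was examined only by rescaling and by leaving libraries out. The labels number the replicates but do not say that they were separate cultures, so p-values measure only the spread between these samples, which may be technical. Depth is unknown, because TPM keep no counts. The line's identity was looked at through 8 genes known from HEK293, of which 7 passed the filter on low values and LHX1 did not. In untransfected cells VIM was at 422 TPM, KRT8 at 81, NEFL at 69.4, KRT18 at 66.8 and CDH2 at 53.4 TPM. Lower levels were those of NEFM (11.9 TPM), PAX2 (4.64) and LHX1 (0.39). Of 11 markers of blood, liver, vessel, fibroblast and pancreas cells, 5 had a row. Their summed levels were 24.6 to 27.4 TPM in transfected and 28.9 to 32.9 TPM in untransfected libraries. Most came from COL1A1 and LUM, at 14.8 and 13 TPM in untransfected cells, above NEFM, PAX2 and LHX1. The summed level of the 8 HEK293 genes was 867.2 to 878.0 TPM in transfected and 687.6 to 742.0 TPM in untransfected libraries, and the part of either set in the changes below was not tested. In bulk RNA, fewer cells of a type and less RNA per cell cannot be told apart.

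Transfected cells had more synthetase mRNA per total transcripts, unevenly spread over the genes. Of the 37 genes, all of which passed the filter of 1 TPM in at least 3 libraries, 16 were higher, 1 was lower and 20 did not pass (limma on log2(TPM + 1), adjusted p below 0.05). Over all 16145 genes tested, 20% were called higher and 10.2% lower; under 3 other scalings of the libraries these shares were 16.6 to 19.1% and 17.3 to 20%, and 11 to 16 of the 37 genes were higher and 3 lower. All 3 transfected values lay above all 3 untransfected values for 22 of the 37 genes and below them for 1, against 29.2% and 17.3% of all genes tested. The median log2 fold was 0.19 over the 37 genes and 0.05 over all genes tested. These are small changes: the extremes were 0.74 for AIMP2 and -0.53 for QARS1. The count of genes called higher was 7 without transfected replicate 3, 9 without transfected replicate 2 and 10 without untransfected replicate 1. It was 18, with 2 lower, once transfected replicate 1 and untransfected replicate 3 were both left out.

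Among the cytosolic enzymes, 10 of 20 were higher (50.0%) and 1 lower, with a median log2 fold of 0.22. The shares over all genes tested were 20% higher and 10.2% lower. Their summed level was 2735.3 ± 90.4 TPM after transfection and 2288.9 ± 165 TPM without it. FARSA and FARSB, which encode the alpha and beta subunits of the cytosolic phenylalanine enzyme, rose the most. FARSA (ENSG00000179115; chromosome 19, 12922479 to 12934037; GRCh38, GENCODE 29, as for the other genes) was at 394.58, 361.30 and 373.38 TPM in the transfected libraries (replicates 1 to 3, the order used throughout) and at 241.20, 239.56 and 247.20 TPM in the untransfected libraries. Every transfected library was far above every untransfected one, with a log2 fold of 0.63 (SE 0.055, adjusted p = 0.000364 in limma). FARSB (ENSG00000116120; chromosome 2, 222570536 to 222656337) was at 88.60, 103.64 and 102.25 TPM in transfected and 75.09, 72.23 and 57.32 TPM in untransfected libraries, a log2 fold of 0.52 (SE 0.109, adjusted p = 0.00927). Its groups did not overlap either, but untransfected replicate 3 was well below the other untransfected libraries. The FARSA to FARSB ratio was 3.86 ± 0.517 in transfected and 3.61 ± 0.607 in untransfected cells, and the groups overlapped (exact permutation p = 0.50, two-sided; 3 libraries against 3 allow no p below 0.10).

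TARS1 (ENSG00000113407; chromosome 5, 33440696 to 33469539), already the highest of the 37 genes, was at 464.53, 510.05 and 498.14 TPM in transfected and 380.43, 374.57 and 319.69 TPM in untransfected libraries. The groups were well apart, with a log2 fold of 0.46 (SE 0.079, adjusted p = 0.00439 in limma). Its paralog TARS3, which encodes another cytosolic threonine enzyme, was at 54.60, 56.88 and 56.05 TPM and 46.79, 45.50 and 41.82 TPM in the same order. It rose as well, by a log2 fold of 0.32 (adjusted p = 0.00726). No 75-base stretch of the longest TARS1 or TARS3 transcript occurred in a transcript of another gene. GARS1, the glycine enzyme of both cytosol and mitochondria, was at 48.22, 49.27 and 47.97 TPM in transfected and 41.37, 39.51 and 37.76 TPM in untransfected libraries, and rose by 0.29 (adjusted p = 0.00821). Its transfected values lay close together and above all the untransfected ones.

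The other 5 cytosolic genes called higher had adjusted p in limma between 0.0104 and 0.0466, with changes of 0.19 to 0.29 on the log2 scale. VARS1, the valine enzyme, which is known to bind the elongation factor that delivers charged tRNA, was at 62.56, 57.74 and 64.17 TPM in transfected and 51.36, 53.91 and 49.19 TPM in untransfected libraries (0.25). YARS1, for tyrosine, was at 96.40, 96.33 and 98.05 TPM and 83.13, 83.67 and 79.59 TPM (0.24). Both kept their groups apart, YARS1 with little spread in either group. WARS1, for tryptophan, was at 75.25, 76.33 and 78.63 TPM in transfected and 66.67, 67.51 and 61.90 TPM in untransfected libraries (0.23). RARS1 was at 173.82, 194.03 and 197.17 TPM and 165.40, 163.39 and 133.21 TPM (0.29), with a low untransfected replicate 3. SARS1 was at 219.61, 231.54 and 230.32 TPM and 200.57, 209.22 and 186.60 TPM (0.19).

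In all 5 the groups were separate, but the calls were lost when single libraries were left out. RARS1 lost its call without transfected replicate 2 or 3 or any 1 untransfected replicate (adjusted p 0.0506 to 0.144 in limma), and SARS1 without any 1 library other than untransfected replicate 2 (0.0545 to 0.140). VARS1 lost it without transfected replicate 1 or 3 or untransfected replicate 1 (0.0613 to 0.0928), WARS1 without transfected replicate 2 or 3 or untransfected replicate 1 (0.0511 to 0.0856), and YARS1 without transfected replicate 3 (0.0538). Quantile normalization lowered the log2 folds of RARS1, SARS1, VARS1 and YARS1 to 0.15, 0.06, 0.16 and 0.12 and ended their calls (0.0878, 0.201, 0.0561 and 0.0649), and that of WARS1 to 0.13 with its call kept (0.0332). Rescaling without mitochondrially encoded and the 20 most abundant genes ended the calls of SARS1 (0.10, adjusted p = 0.0613) and VARS1 (0.16, 0.0524), and SARS1 also lost its call without GC and length trends (0.09, 0.0546) and without a variance trend (adjusted p = 0.0821). RARS1 lost its call without the low-value filter (0.0543) and without a variance trend (0.0741).

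QARS1, the glutamine enzyme, was the exception. QARS1 (ENSG00000172053; chromosome 3, 49095932 to 49105135) was at 100.28, 105.94 and 106.63 TPM in transfected and 153.24, 157.82 and 141.03 TPM in untransfected libraries. All transfected values lay far below the lowest untransfected one. It fell by 0.53 on the log2 scale (SE 0.061, adjusted p = 0.00101 in limma), to 0.69 of its untransfected level, and ranked 472 from the bottom of 16145 genes. Its exons share 61 bases with a microRNA gene on the same strand and no other annotated gene. Mitochondria have no glutamine enzyme of their own in human cells; they charge the tRNA with glutamate and convert it with an amidotransferase whose catalytic subunit is QRSL1. QRSL1 was at 36.69, 40.60 and 37.84 TPM in transfected and 25.58, 27.54 and 21.83 TPM in untransfected libraries. It was thus higher in every transfected library, with a log2 fold of 0.60 (adjusted p = 0.00253), the opposite direction to QARS1. The genes for the other subunits, GATB and GATC, overlapped between the groups, with log2 folds of 0.06 (adjusted p = 0.617) and 0.04 (0.64).

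QARS1 and FARSA changed most among the synthetases, downwards and upwards, and neither held the CARE motif or CACGTG, the E-box that MYC binds (an even palindrome, so both strands give the same matches), in its promoter. CACGTG was present for 5 of the 32 genes with a promoter (AIMP2, CARS2, EARS2, IARS1 and MARS2; 15.6%) and for 8.77% of all genes. The 250 bases before the start are shown for both, on the gene's strand, at chr19:12933712-12933961 for FARSA and chr3:49104758-49105007 for QARS1 (both minus strand, GRCh38.p14, RefSeq), all in lower case because there is no match to mark.
FARSA: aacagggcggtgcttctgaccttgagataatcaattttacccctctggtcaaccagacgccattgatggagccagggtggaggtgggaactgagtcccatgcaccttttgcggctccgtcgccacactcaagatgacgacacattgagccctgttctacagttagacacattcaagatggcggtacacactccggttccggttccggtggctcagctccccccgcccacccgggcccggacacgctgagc
QARS1: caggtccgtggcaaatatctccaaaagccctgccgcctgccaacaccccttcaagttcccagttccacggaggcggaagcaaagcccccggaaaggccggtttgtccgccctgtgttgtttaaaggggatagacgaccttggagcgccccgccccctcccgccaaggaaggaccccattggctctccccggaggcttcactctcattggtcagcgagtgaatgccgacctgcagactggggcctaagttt

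Among the cytosolic genes, FARSA (0.63), QARS1 (-0.53) and FARSB (0.52) changed most and had no CARE match. TARS1 (0.46), which had one, came next. Of the 7 cytosolic genes with a match, TARS1 and GARS1 were higher and 5 did not pass, with a median log2 fold of 0.14. Of the 9 with a promoter but no match, 5 were higher and 1 lower, with a median of 0.23, against 20% of all genes called higher. The calls of TARS1 and GARS1 were kept under all 17 other settings, but among the 9 those of RARS1, SARS1 and WARS1 were not, which leaves 2 higher in each set, the others being FARSA and FARSB. AARS1, the alanine enzyme, was at 58.76, 61.80 and 62.31 TPM in transfected and 65.56, 68.30 and 59.57 TPM in untransfected libraries. Its groups overlapped, with a log2 fold of -0.08 (adjusted p = 0.412 in limma). CARS1 for cysteine (0.06, adjusted p = 0.685), IARS1 for isoleucine (0.09, 0.502), MARS1 for methionine (0.14, 0.118) and NARS1 for asparagine (0.21, 0.128) did not pass either. MARS1 shares 355 exonic bases with DDIT3 on the opposite strand, and the strand setting of the counting is not given in the sources used here. Sorted by the list from general knowledge rather than by motif, 5 of 12 synthetases listed as ATF4-responsive were higher (median 0.17), as were 5 of the 8 others (median 0.27), among which QARS1 was lower.

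ATF4 itself was higher in these transfected cells, at 830 against 542 TPM (log2 fold 0.62, adjusted p = 0.000495 in limma). Of 33 other genes of the ATF4 amino acid response that were tested, ATF4 included, 9 were higher (27.3%, against 20% of all genes tested) and 2 lower, with a median of 0.02, below the 0.05 of all genes. SLC3A2, a subunit of amino acid transporters, had a log2 fold of 0.95, and the transcription factor genes ATF5 and DDIT3 had 0.56 and 0.53. The genes called lower, named after their values were seen, were PYCR1 (-0.29) and SHMT2 (-0.27), for enzymes of proline and serine metabolism. The difference between genes with and without a match was not tested, since single genes are not replicates of a condition.

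The multisynthetase complex held both the gene that changed most upwards and the one that changed most downwards. The list held 9 of its genes: EPRS1, IARS1, KARS1, LARS1, MARS1, QARS1, RARS1, AIMP1 and AIMP2. Of these 3 were higher and 1 lower, with a median log2 fold of 0.14. Of the 13 cytosolic synthetases outside the complex 9 were higher and 0 lower, with a median of 0.24. Over all genes tested, 20% were called higher and 10.2% lower. The calls of RARS1 and AIMP1 in the complex were lost under at least 1 other setting. So were those of SARS1, VARS1, WARS1 and YARS1 outside it, and the difference between the sets was not tested. AIMP2 (ENSG00000106305; chromosome 7, 6009245 to 6023834), the scaffold protein that anchors several of the enzymes, was at 157.27, 151.72 and 150.70 TPM in transfected and 95.30, 93.03 and 85.51 TPM in untransfected libraries. The groups were far apart, and the log2 fold of 0.74 (SE 0.059, adjusted p = 0.000238 in limma) ranked 465 from the top of 16145 genes. AIMP2 overlaps EIF2AK1, on the opposite strand, over 28.9% of its exonic bases; EIF2AK1 itself had a log2 fold of -0.10 (adjusted p = 0.15). AIMP1 was at 47.53, 57.23 and 54.51 TPM and 44.91, 42.88 and 39.55 TPM, and rose by 0.31 (adjusted p = 0.0246).

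AIMP1 lost its call with transfected replicate 2 or 3 or untransfected replicate 2 omitted (adjusted p 0.0915, 0.0869 and 0.0550 in limma). The third scaffold gene, EEF1E1, was not on the list of 38 but rose as well, with a log2 fold of 0.29 (adjusted p = 0.0378). EPRS1, at 225 ± 14.8 and 212 ± 20.6 TPM in transfected and untransfected cells, and LARS1 for leucine, at 79.4 ± 4.83 and 71.9 ± 7.31 TPM, did not pass, with overlapping groups. KARS1, the lysine enzyme, was at 174 ± 6.18 and 148 ± 16.8 TPM. Its groups did not overlap, but it did not pass either (adjusted p = 0.0722).

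Shares within a library are the same whatever factor the whole library is multiplied by. QARS1 made up 9.0, 8.9 and 8.9% of the summed TPM of the 9 complex genes in the transfected libraries and 13.9, 14.4 and 15.0% in the untransfected libraries. AIMP2 made up 14.1, 12.7 and 12.5% and 8.6, 8.5 and 9.1%. QARS1 was thus above AIMP2 in the untransfected libraries and below it in the transfected ones. RARS1 (16.1 ± 0.417% against 14.7 ± 0.445%), KARS1 (14.9 ± 0.301% against 14.2 ± 0.388%) and AIMP1 (4.5 ± 0.266% against 4.1 ± 0.152%) were also at larger shares in all transfected libraries, and EPRS1 at a smaller one (19.2 ± 0.492% against 20.2 ± 0.192%). Each of these separations has an exact permutation p of 0.10, two-sided, the smallest that 3 libraries against 3 allow. The shares of IARS1, LARS1 and MARS1 overlapped.

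**Figure D2:**
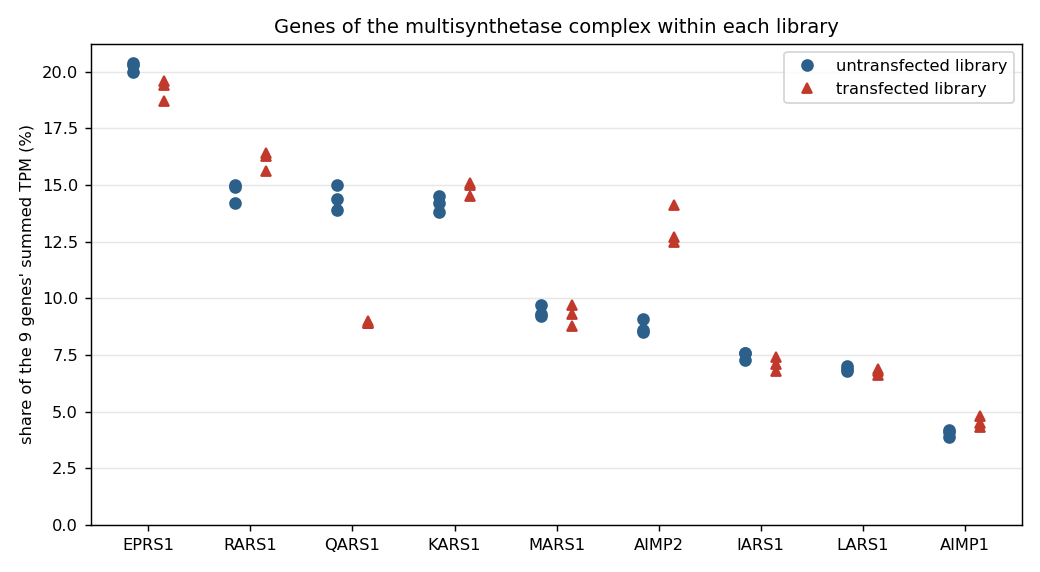
Share of each gene in the summed TPM of 9 genes of the multisynthetase complex (%), in the 3 untransfected libraries (circles) and 3 transfected libraries (triangles). QARS1 moves from 13.9 to 15.0% down to about 9%, AIMP2 from 8.5 to 9.1% up to 12.5 to 14.1%, and the other genes stay near their untransfected share.

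Among the mitochondrial enzymes, 4 of 15 were higher (26.7%, near the 20% of all genes tested) and 0 lower (0 also at an unadjusted p below 0.05 in limma), with a median log2 fold of 0.15. WARS2, for tryptophan (ENSG00000116874; chromosome 1, 119031216 to 119140671), was at 30.25, 36.35 and 33.10 TPM in transfected and 24.88, 24.99 and 19.85 TPM in untransfected libraries. All transfected values were higher, with a log2 fold of 0.50 (SE 0.106, adjusted p = 0.00977 in limma). EARS2 (0.26), LARS2 (0.26) and AARS2 (0.19), for glutamate, leucine and alanine, also passed (adjusted p 0.0192 to 0.0293). EARS2 was at 47.73, 49.16 and 49.23 TPM in transfected and 41.34, 43.68 and 37.19 TPM in untransfected libraries. LARS2 was at 35.35, 37.35 and 37.02 TPM and 31.18, 31.63 and 28.45 TPM, and AARS2 at 79.19, 78.75 and 83.18 TPM and 71.24, 70.55 and 69.82 TPM. None of these 3 overlapped between the groups, and the untransfected values of AARS2 were close together. Without transfected replicate 2 or 3, WARS2 was the only one of the 15 called higher, against 12.2% and 12.6% of all genes tested.

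AARS2 lost its call with the omission of each library in turn, untransfected replicate 3 excepted (adjusted p 0.0628 to 0.132 in limma) and under 3 other scalings (0.0939 to 0.227). EARS2 lost its call without transfected replicate 1, 2 or 3 or untransfected replicate 1 (0.0521 to 0.0928), and LARS2 without transfected replicate 2 or 3 (0.0723 and 0.0762).

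FARS2, TARS2, PARS2 and CARS2 had log2 folds of 0.15 to 0.25 and groups that did not overlap, but did not pass (adjusted p 0.0602 to 0.175 in limma). NARS2 (0.12), MARS2 (0.08), IARS2 (0.01), SARS2 (-0.01), RARS2 (-0.03) and YARS2 (-0.03) overlapped between the groups. IARS2, the most abundant of them, was at 139.09, 162.54 and 152.87 TPM in transfected and 161.61, 159.66 and 129.93 TPM in untransfected libraries, with 1 low library in each group. HARS2, for histidine, was at 39.03, 39.26 and 40.78 TPM and 45.18, 45.29 and 40.54 TPM in the same order, a log2 fold of -0.13 (adjusted p = 0.156). The groups of HARS2 overlapped only through transfected replicate 3 (40.78 TPM) and untransfected replicate 3 (40.54 TPM). Without untransfected replicate 3 the adjusted p was 0.0341 in limma, with a log2 fold of -0.18. Without transfected replicate 3 instead, 0 mitochondrial genes were called lower. HARS2 also passed as lower under 3 other scalings (adjusted p 0.00566 to 0.0112) and without GC and length trends (0.00189).

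To compare the compartments directly, the cytosolic value was divided by the mitochondrial value for the same amino acid in each library, which gave 16 pairs; EPRS1 and FARS2 each enter 2 of them. In all 6 libraries the cytosolic gene was at the higher level in 12 pairs and the mitochondrial gene in 3, AARS1/AARS2, HARS1/HARS2 and IARS1/IARS2. The ratio was higher in all transfected libraries for 6 pairs, lower in all for 3, and overlapped for 7. For 9 pairs the groups therefore separated, in both directions. How often ratios of other gene pairs separate was not examined, so these counts have no background. Of single genes tested, 29.2% lay above and 17.3% below without overlap. The summed cytosolic level was 4.20, 4.16 and 4.17 times the summed mitochondrial level in the transfected libraries and 3.83, 3.76 and 3.82 times in the untransfected ones. The groups of this ratio were apart (exact permutation p = 0.10, two-sided). Abundant genes weigh most in such sums. TARS1 and FARSA rose by 133 and 134 TPM between group means, while the whole cytosolic sum went from 2288.9 to 2735.3 TPM. The ratio without these 2 genes was not examined, so it does not describe the cytosolic set gene by gene.

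Among the 6 pairs whose plain ratios were higher without overlap, RARS1/RARS2 shifted most, at 16.23, 14.19 and 14.04 in transfected and 12.02, 11.35 and 11.96 in untransfected libraries. TARS1/TARS2 was at 3.98, 4.46 and 4.01 and at 3.61, 3.42 and 3.24. FARSB/FARS2, YARS1/YARS2, HARS1/HARS2 and IARS1/IARS2 moved the same way. The shifts towards the mitochondrial gene were those of WARS1/WARS2 (2.49, 2.10 and 2.38 against 2.68, 2.70 and 3.12), AARS1/AARS2 (0.74, 0.78 and 0.75 against 0.92, 0.97 and 0.85) and EPRS1/EARS2 (4.36, 4.76 and 4.74 against 5.41, 5.12 and 5.05). For tryptophan and alanine the mitochondrial enzyme thus gained on the cytosolic one.

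HARS1 and HARS2 lie head to head on chromosome 5 and share 437 exonic bases on opposite strands, so reads there cannot be placed without strand. HARS1 overlapped between the groups, with a log2 fold of 0.06 (adjusted p = 0.628 in limma), and its ratio to HARS2 was 0.89, 0.96 and 0.98 in transfected and 0.83, 0.83 and 0.80 in untransfected libraries. Over the 16 pairs, compared by log2 of the ratio of TPM + 1, each pair without overlap had an exact permutation p of 0.10, two-sided, and an adjusted p of 0.16. With 3 libraries per group no pair could pass 0.05. FARSA/FARS2 had a larger shift than RARS1/RARS2 on that scale (0.38 against 0.32) and no overlap there, but it overlapped as a plain ratio (27.25 to 33.67 against 21.20 to 27.47).

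**Figure D3:**
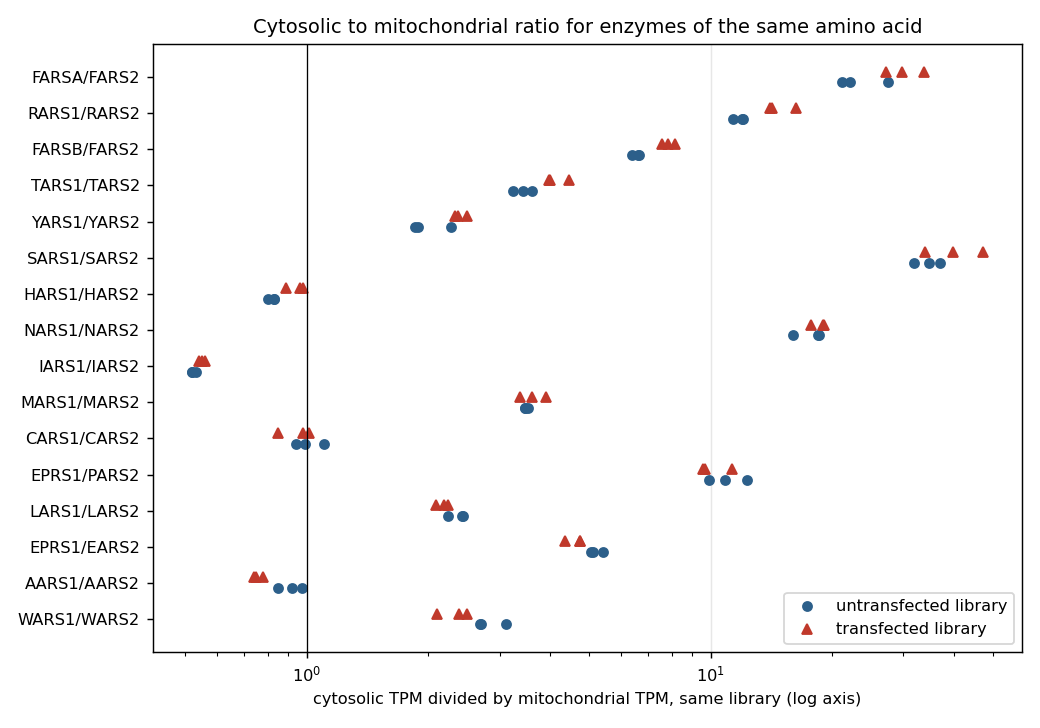
Cytosolic TPM divided by mitochondrial TPM in the same library (log axis) for 16 pairs of enzymes of the same amino acid, with untransfected libraries as circles and transfected libraries as triangles. Pairs are ordered by the change between groups; RARS1/RARS2, TARS1/TARS2 and FARSB/FARS2 lie to the right in transfected cells, WARS1/WARS2 and AARS1/AARS2 to the left.

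The synthetases fall into 2 structural classes with unrelated folds, and the difference between the classes was not tested. EPRS1, for glutamate and proline, was counted in class I only, although PARS2, the mitochondrial proline enzyme, was counted in class II. The counts and sums of both classes rest on that choice. Of the 18 genes for class I enzymes 7 were higher and 1 lower (median log2 fold 0.14), and of the 17 for class II enzymes 7 were higher and 0 lower (median 0.19), against 20% of all genes tested called higher. The summed level of the class I genes was 1334.0 to 1445.8 TPM in transfected and 1190.2 to 1390.1 TPM in untransfected libraries, which overlapped. That of the class II genes was 1924.7 to 2026.1 TPM and 1457.7 to 1632.9 TPM, with no overlap. Abundant genes weigh most in these sums. TARS1 and FARSA, both class II, rose by 133 and 134 TPM between group means, and QARS1, of class I, changed by -46.4 TPM. In each gene list given with 0 genes lower, 0 were lower at an unadjusted p below 0.05 in limma too. Across the 37 genes the log2 fold had a Spearman rho of -0.14 with the GC content of the longest transcript, -0.02 with its length and 0.20 with the untransfected level (Pearson r -0.11, -0.11 and 0.18); the genes share the same 6 libraries and are not independent.

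Among other genes that tRNAs depend on, the share called higher differed from list to list, against 20% of all genes tested. Of 69 tRNA modification genes tested, 28 were higher (40.6%) and 3 lower, with a median log2 fold of 0.22. ALKBH8, a methyltransferase and hydroxylase of the tRNA wobble base, was at 45.2 against 20.6 TPM (log2 fold 1.10, adjusted p = 9.69e-05 in limma). ALKBH1 (0.75), THG1L (0.66), which adds the extra guanosine of histidine tRNA, and TRIT1 (0.63), which adds an isopentenyl group, rose as well. Of 26 genes of tRNA end processing and splicing 5 were higher (19.2%, the level of the background) and 2 lower (median 0.08). The genes for the RNase P subunits RPP40 (0.72), RPP30 (0.71) and RPP38 (0.37) were among the higher. That for the subunit POP5 was among the lower (-0.31, adjusted p = 0.0319 in limma). Those for POP1, POP4, POP7, RPP14 and RPP25 did not pass. Of 7 genes listed under tRNA export, not all of them particular to it, 4 were higher and 0 lower (median 0.27). The 4 were SSB, XPO5, NXF1 and NXT1, while RANBP2 (0.15) and RAN (0.12) did not pass. The tRNA exportin gene XPOT did not pass either (-0.08, adjusted p = 0.472 in limma), so the count does not describe tRNA export as such. Of 6 genes that deliver charged tRNA to the ribosome 0 passed in limma (median 0.10, with 2 at an unadjusted p below 0.05).

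With 17 other settings of the analysis, 8 of the 17 called genes were called in the same direction under every one: AIMP2, FARSA, FARSB, TARS1, TARS3, GARS1 and WARS2 as higher and QARS1 as lower. The other 9 lost their call under at least 1 setting, and AARS1, HARS2, KARS1, MARS1, NARS1 and TARS2 gained one under at least 1. Under the 3 other scalings the median of all genes tested was -0.034 to -0.005, and the 3 genes called lower were QARS1, HARS2 and AARS1; AARS1 then had log2 folds of -0.14 to -0.17 (adjusted p 0.0129 to 0.0254 in limma).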

How the data were processed

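RNA-seq libraries had been made with a stranded total RNA kit, per the labels' protocols, with STAR and GRCh38 named per the submitters' processing notes. Counting tool, annotation and strand setting: not given in the sources used here. For every Ensembl gene the authors deposited TPM, which summed to the same total in each of 3 transfected and 3 untransfected libraries. Of 18298 lines, 134 repeated an ID with identical values and were dropped, leaving 18164 genes, of which 18139 IDs matched the name table. The 16145 genes that reached 1 TPM in 3 or more libraries were tested with limma 3.58.1 in R 4.3.3 on log2(TPM + 1), with group as the only term, a mean-variance trend and Benjamini-Hochberg adjustment at 0.05. This scale understates the change of low genes. Ratios and shares were compared with exact permutation tests (scipy 1.17.1). Positions, overlaps and shared 75-base stretches came from GENCODE 29, promoters from RefSeq.

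The members and all gene lists were chosen with earlier results of these data known. The text gives library values for each gene that passed and for the 5 highest and 5 lowest genes, and at most 4 called genes of a related list. The alternatives were the low-value filter, the pseudocount, the scaling, the variance trend, a replicate block and leaving libraries out; removal of GC and length trends was chosen after seeing the data. The fit was tested on simulated data.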

Additional observations from a re-analysis of the deposited data

How the results depend on the processing

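With the 17 alternatives, the log2 folds of the 37 genes kept direction and side of the threshold in most cases; reversals were limited to 10 genes that had not passed, and for all of the following the cause was not tested. The 16 pair ratios, run under the pseudocounts and the omissions of libraries only, kept their direction; none could pass the threshold. Of 16 genes higher, 7 to 14 were left when 1 library was omitted, and of 1 lower, 1 to 2; for cytosolic genes 5 to 9 of 10 were higher, and for mitochondrial genes 1 to 4 of 4 higher and 0 to 1 lower. Median-ratio scaling, quantile normalization and rescaling without mitochondrially encoded and the 20 most abundant genes each gave 3 genes lower, 2 of them cytosolic and 1 mitochondrial. Removing GC and length trends, or omitting transfected replicate 1 and untransfected replicate 3 together, gave 2 lower, 1 of them mitochondrial. Quantile normalization left 6 cytosolic genes higher. The cytosolic median of 0.22 was 0.12 without GC and length trends, 0.09 after quantile normalization and 0.13 after rescaling, which also took the mitochondrial median from 0.15 to 0.06. Over all genes tested, 1644 were lower, against 2789, 2887 and 3216 under the 3 scalings and 3438 without GC and length trends; 1973 and 2034 of 3236 were higher without transfected replicate 2 or 3, and 992 and 1057 were lower without transfected replicate 2 or untransfected replicate 1.

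With a replicate block, 7 genes were higher, 5 of them cytosolic and 1 mitochondrial. The samples share only a number: deviations of same-numbered libraries correlated at -0.18, 0.11 and -0.16, while transfected 1 and untransfected 3 correlated at 0.31.

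Log2 folds changed sign without GC and length trends for EPRS1 (-0.017), HARS1 (-0.029), IARS1 (-0.014), IARS2 (-0.091), MARS2 (-0.005), NARS2 (-0.004) and SARS2 (0.044). Median-ratio scaling did so for CARS1 (-0.001), HARS1 (-0.001) and IARS2 (-0.047), and quantile normalization for EPRS1 (-0.037), IARS1 (-0.025) and IARS2 (-0.127). Rescaling did so for CARS1 (-0.030), EPRS1 (-0.001), HARS1 (-0.030), IARS1 (-0.001), IARS2 (-0.077) and MARS2 (-0.006), and the joint omission for IARS2 (-0.027). Omitting 1 library gave -0.017 to 0.12 for CARS1, -0.011 to 0.11 for HARS1, -0.002 to 0.15 for IARS1, -0.087 to 0.07 for IARS2, -0.14 to 0.083 for RARS2, -0.13 to 0.076 for SARS2 and -0.14 to 0.036 for YARS2. TPM keep no depth, so counting error cannot be given.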
